A study of Rattus norvegicus with 24 samples.

Results

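Bdnf (ENSRNOG00000047466), which encodes brain-derived neurotrophic factor, and Ntrk2 (ENSRNOG00000018839), which encodes its receptor TrkB, were followed through 24 RNA-seq libraries of rat hippocampus. They are 2 of the 32883 genes counted, and both were among the 14838 genes that passed the filter on low counts. The genes were taken by these Ensembl identifiers, which the count table does not pair with symbols, so the names rest on the identifiers alone. The study asked how glucocorticoid hormone enhances memory formation, and it crossed training with corticosterone, the main glucocorticoid of the rat. All libraries came from male Sprague-Dawley rats. There were 7 libraries from rats with no training given vehicle, 6 from rats with no training given corticosterone, 5 from trained rats given vehicle and 6 from trained rats given corticosterone. The training task, the dose, the time between treatment and dissection, and the rats' age are not stated in the labels. Whether each numbered sample is a rat of its own is not said, so the tests speak only to variation among the libraries, which may be technical.

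BDNF is a secreted growth factor that neurons release in an activity-dependent way. It binds TrkB, a receptor tyrosine kinase, which signals through the MAP kinase, phosphoinositide 3-kinase and phospholipase C-gamma pathways and supports long-term potentiation, the strengthening of synapses studied as a cellular basis of memory in the hippocampus. Bdnf transcripts start at several alternative first exons that are spliced to a common coding exon, and neuronal activity acts on some of these starts through the cAMP response element binding protein CREB. Ntrk2 gives rise to the full-length kinase receptor and to truncated forms without the kinase, the latter made largely by astrocytes. A count per gene adds these forms together, so neither the start used by Bdnf nor the form of TrkB can be read from the values given here. In tissue RNA, fewer cells that express a gene and less of its RNA per cell cannot be told apart.

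RefSeq lists 6 start sites for Bdnf in assembly GRCr8, all on the forward strand and spread over 20225 bases, and 1 of the 2 genes (Bdnf) matched the promoter table. The 250 bases before each start were searched on both strands for the full glucocorticoid response element (AGAACA and TGTTCT with any 3 bases between), for AGAACA alone, for the cAMP response element TGACGTCA and its shortened form TGACGT. Each shorter motif lies within the longer one of its pair. The fifth and the sixth start lie 56 bases apart, so their windows share most of their bases. The full glucocorticoid element was in 0 of the 6 windows and in 0.012% of the 33469 such windows listed. The list does not cover all genes, since Ntrk2 is absent from it, and all windows here means those listed. AGAACA alone was before the first and the second start, at 241 and 189 bases, and in 17.5% of all windows. The shortened cAMP element was 36 bases before the fourth start and in 6.95% of all windows, while the full one was in 0 of the 6 and in 1.59% of all. These 3 windows are shown because they hold the letters of the elements bound by the glucocorticoid receptor and by CREB. A match is a description of the sequence, not a site of binding. Capitals mark the match, which reads in reverse complement in the second and the fourth window. The windows lie at chr3:116619383-116619632, chr3:116620585-116620834 and chr3:116637608-116637857 on the forward strand of GRCr8, in this order.
Bdnf, start 1: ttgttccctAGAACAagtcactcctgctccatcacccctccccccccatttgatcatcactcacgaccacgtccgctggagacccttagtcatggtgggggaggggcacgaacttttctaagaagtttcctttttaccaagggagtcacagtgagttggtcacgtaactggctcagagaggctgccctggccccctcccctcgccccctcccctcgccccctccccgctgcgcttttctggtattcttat
Bdnf, start 2: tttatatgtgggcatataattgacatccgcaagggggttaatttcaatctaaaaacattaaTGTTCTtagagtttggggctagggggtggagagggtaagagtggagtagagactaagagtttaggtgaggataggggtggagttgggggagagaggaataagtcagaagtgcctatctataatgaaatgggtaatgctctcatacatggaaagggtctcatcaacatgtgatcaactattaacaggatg
Bdnf, start 4: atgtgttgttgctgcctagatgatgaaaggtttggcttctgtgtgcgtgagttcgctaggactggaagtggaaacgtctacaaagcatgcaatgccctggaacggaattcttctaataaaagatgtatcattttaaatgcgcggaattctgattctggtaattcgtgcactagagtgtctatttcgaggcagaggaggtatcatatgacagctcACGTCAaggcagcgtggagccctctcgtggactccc

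Each library held between 13760331 and 16765088 counts in genes (median 15754782). Levels are given in CPM, counts scaled to a common library size with TMM factors, which lay between 0.976 and 1.03. On the first principal component of all other genes, which carried 31.5% of the variance, 8 libraries (2 vehicle and 6 corticosterone) stood apart from the other 16, with no library between 0.00217 and 19.04. Values without these 8 libraries are given for the corticosterone contrasts, the interaction, the ratio of the 2 genes and training under corticosterone. The identifiers could not be matched to symbols, so the labelled tissue was not checked against marker genes and other genes of the neurotrophin pathway were not looked up. Libraries of the same group always differed by more than sampling of reads would give (smallest chi-square per degree of freedom 4.09 for a pair).

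Bdnf was read at 30.3 ± 5.19 CPM over all libraries (SD, n = 24), from 339 to 594 counts. That level was above that of 58.5% of the 14838 genes tested. Ntrk2 was read at 811 ± 34.9 CPM (SD, n = 24), from 11099 to 14498 counts, and ranked 118 among the genes tested. Counts also grow with transcript length, so the CPM of the 2 genes do not compare their abundance. The genes also differed in how steady they were between libraries of a group. For Bdnf the within-group SD of log2 CPM was 0.23, higher than in 71.2% of genes, and for Ntrk2 it was 0.06, higher than in 7.16% of genes, against a median of 0.14 over all. The biological coefficient of variation estimated by edgeR was 14.5% for Bdnf and 5.35% for Ntrk2 (median of all genes 8.69%). Counting alone would give 4.63% and 0.894%, so the depth was not the main source of spread for either gene.

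**Figure D1:**
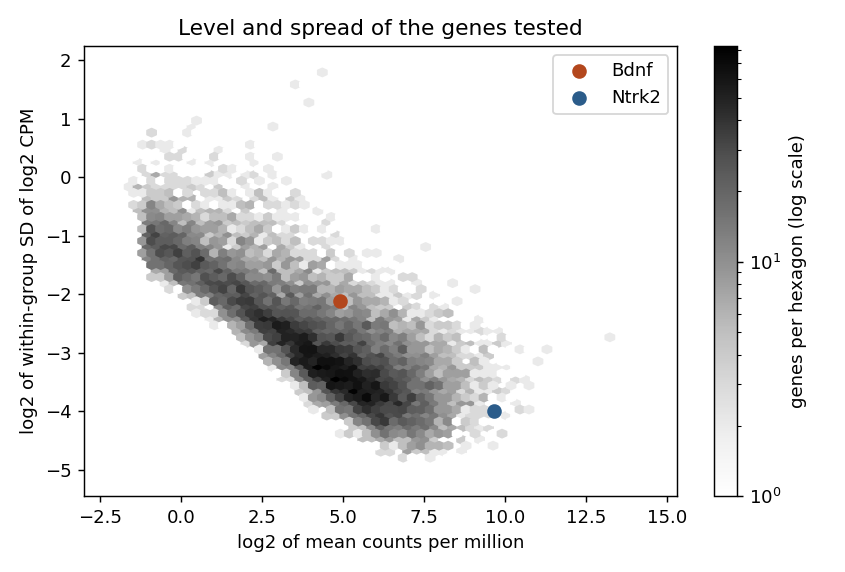
Each hexagon holds genes by their mean level (log2 of mean CPM, x axis) and their spread within groups (log2 of the SD of log2 CPM, y axis), shaded by the number of genes on a log scale, for the 14838 genes tested. Ntrk2, at 811 CPM and an SD of 0.06, lies at the high and steady end, and Bdnf, at 30.3 CPM and an SD of 0.23, lies in the middle of the range of levels.

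Bdnf, the ligand, was lowest on average in the corticosterone groups. In untrained vehicle libraries it ran from 23.2 through a median of 35.6 to 39.6 CPM, with a mean of 32.99 ± 5.67 CPM (SD, n = 7). In untrained corticosterone libraries it ran from 21.7 through 27.8 to 36.1 CPM, with a mean of 28.5 ± 5.33 CPM (SD, n = 6). The groups overlapped, with 3 of the 7 vehicle libraries above every corticosterone library and 1 of the 6 corticosterone libraries below every vehicle library. The 5 trained vehicle libraries were at 29.8, 39.5, 31.4, 26.8 and 35.7 CPM (samples 5, 10, 20, 25 and 35), with a mean of 32.6 ± 5.00 CPM (SD, n = 5). Trained corticosterone libraries ran from 22.7 through 27.8 to 28.7 CPM, with a mean of 27.1 ± 2.23 CPM (SD, n = 6). All 6 of these were below the trained vehicle median and 4 of the 5 vehicle libraries were above all of them, but the vehicle library of sample 25 fell among them.

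**Figure D2:**
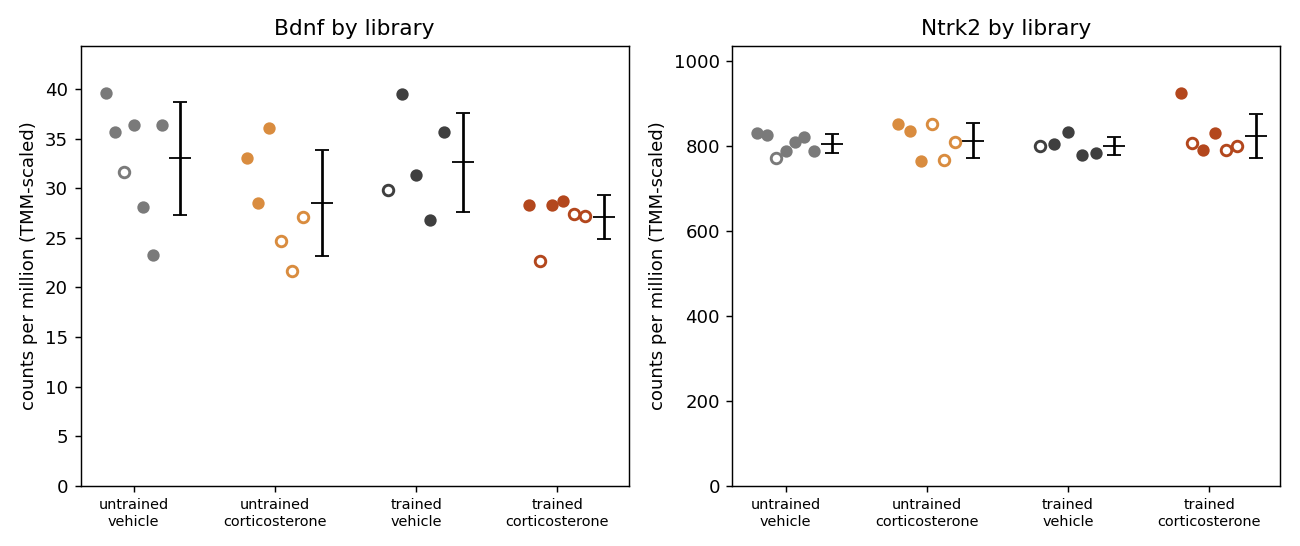
Levels of Bdnf (left) and Ntrk2 (right) in CPM, from 0, for each of the 24 libraries in the 4 groups, with the mean and SD of each group as a black bar. Open points are the 8 libraries that stand apart on the first principal component. Bdnf spans 21.7 to 39.6 CPM and is mostly lower in the corticosterone groups, with overlap, while Ntrk2 stays between 764 and 925 CPM in all groups.

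Averaged over training, Bdnf was at 32.8 ± 5.16 CPM (SD, n = 12) with vehicle and 27.8 ± 3.96 CPM (SD, n = 12) with corticosterone, and 11 of 12 corticosterone libraries lay below the vehicle median. The log2 fold change was -0.24 (SE 0.09, 95% interval -0.42 to -0.06), a difference of -15.3% with an interval from -25.2% to -4.02%. The unadjusted p was 0.0114 (edgeR quasi-likelihood test), but after Benjamini-Hochberg adjustment over all genes it was 0.328, so Bdnf did not pass the threshold of 0.05. In this contrast 138 genes, or 0.93% of those tested, were called, and 9.25% had an unadjusted p under 0.05. By p, Bdnf ranked 515 of 14838, so 3.46% of genes had a smaller p. The edgeR adjusted p ranged from 0.136 to 0.482 when each library was left out in turn, and the log2 fold change kept its sign in all 24 of these fits.

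Within training states the corticosterone difference in Bdnf had the same sign. In untrained rats the log2 fold change was -0.21 (SE 0.12, 95% interval -0.46 to 0.03, edgeR adjusted p = 0.807), where 0.357% of genes were called. In trained rats it was -0.27 (SE 0.13, 95% interval -0.53 to -0.00192, edgeR unadjusted p = 0.0485, adjusted p = 0.696), where 0.162% of genes were called. The interaction term, which subtracts the untrained from the trained effect, was -0.06 (SE 0.17, edgeR adjusted p = 0.985). Its interval ran from -0.42 to 0.30, which bounds the fold change in trained rats between -25.05% and 23.5% relative to that in untrained rats. The estimate was -0.20 (SE 0.21, edgeR adjusted p = 0.876) without the 8 libraries that stand apart, and 0.06 (SE 0.18, edgeR adjusted p = 0.987) with runs of 5 consecutive sample numbers as a block, an alternative chosen after the values were seen. Neither its size nor its sign was thus fixed by these data. Of the 14838 genes, 0% were called for the interaction.

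The size of the Bdnf difference moved with the libraries that stand apart. Bdnf was at 26.5 ± 3.39 CPM in those 8 libraries and at 32.2 ± 4.93 CPM in the other 16 (SD, n = 8 and 16). Among the 16, it was at 33.3 ± 5.59 CPM in 10 vehicle and 30.5 ± 3.31 CPM in 6 corticosterone libraries (SD). Among the 8, it was at 29.8 and 31.7 CPM in the 2 vehicle libraries and at 25.1 ± 2.50 CPM in 6 corticosterone libraries (SD). Corticosterone libraries were thus lower on average on both sides of the gap. Without the 8 libraries the log2 fold change averaged over training was -0.13 (SE 0.10, edgeR adjusted p = 0.877). It was -0.03 without training (SE 0.14, edgeR adjusted p = 0.986) and -0.23 with training (SE 0.15, edgeR adjusted p = 0.74). The untrained value rests on 6 vehicle and 3 corticosterone libraries. Among these 3 is sample 14, the highest corticosterone library for Bdnf at 36.1 CPM. With the first principal component as a covariate the log2 fold change was -0.17 averaged over training (SE 0.08, edgeR adjusted p = 0.555). The part of that component in the Bdnf difference was not tested beyond these values.

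**Figure D3:**
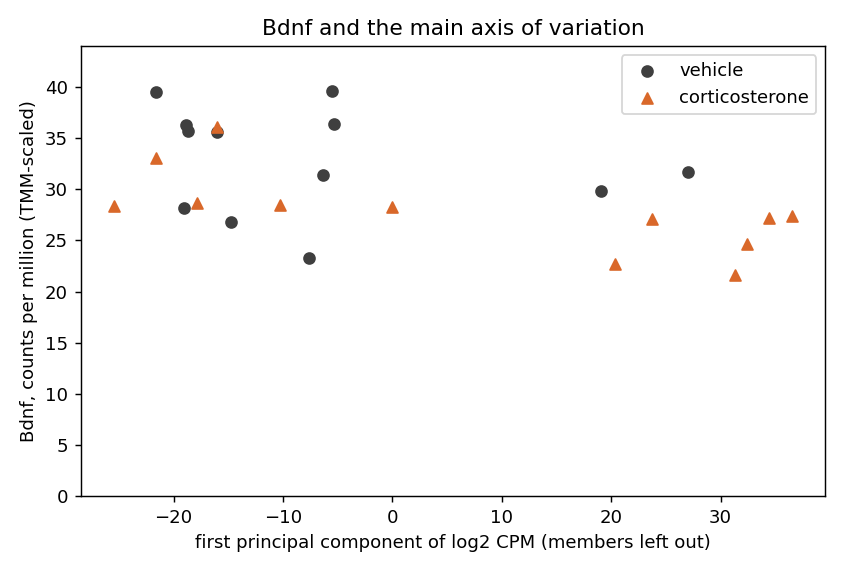
Bdnf in CPM (y axis, from 0) against each library's position on the first principal component of log2 CPM, computed without Bdnf and Ntrk2 (x axis), for 12 vehicle libraries (circles) and 12 corticosterone libraries (triangles). The 8 libraries on the right, of which 6 are from corticosterone, have Bdnf between 21.7 and 31.7 CPM, and the 16 on the left between 23.2 and 39.6 CPM.

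Ntrk2, the receptor, had group means between 801 and 824 CPM. It ran from 773 through 810 to 830 CPM in untrained vehicle libraries (mean 805 ± 22.2 CPM, SD, n = 7). In untrained corticosterone libraries it ran from 764 through 822 to 852 CPM (mean 813 ± 40.3 CPM, SD, n = 6). The 5 trained vehicle libraries were at 801, 806, 834, 780 and 784 CPM (samples 5, 10, 20, 25 and 35), with a mean of 801 ± 21.6 CPM (SD, n = 5). Trained corticosterone libraries ran from 791 through 804 to 925 CPM (mean 824 ± 51.5 CPM, SD, n = 6). All 4 groups overlapped, and the highest value belonged to 1 trained corticosterone library (sample 3), the next in that group being 831 CPM.

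The log2 fold change of Ntrk2 for corticosterone averaged over training was 0.03 (SE 0.03, edgeR adjusted p = 0.872), with a 95% interval that bounds the difference between -2.06% and 6.11%. Without sample 3 it was 0.00992 (SE 0.02, edgeR adjusted p = 0.946). Without training it was 0.01 (SE 0.04, edgeR adjusted p = 0.971) and with training 0.04 (SE 0.04, edgeR adjusted p = 0.868). Without sample 3 the trained value was 0.00580, so that 1 library made up most of both the averaged and the trained value. Without the 8 libraries that stand apart, of which sample 3 is not one, the values were 0.05 averaged over training (SE 0.04, edgeR adjusted p = 0.857), 0.01 without training (SE 0.05, edgeR adjusted p = 0.988) and 0.08 with training (SE 0.05, edgeR adjusted p = 0.71). The interaction was 0.03 (SE 0.06, edgeR adjusted p = 0.98, interval -5.92% to 10.4%), and 0.07 without the 8 libraries (SE 0.07, edgeR adjusted p = 0.858). On each side of the estimate averaged over training, the 95% interval reached 0.06 on the log2 scale for Ntrk2, 0.18 for Bdnf and 0.12 for the median gene.

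Training itself was examined next, averaged over treatment and within each treatment. Mean Bdnf levels were 30.9 ± 5.78 CPM (SD, n = 13) without and 29.6 ± 4.56 CPM (SD, n = 11) with training. The log2 fold change averaged over treatment was -0.04 (SE 0.09, edgeR adjusted p = 0.999), with an interval from -14.4% to 9.87%. Under vehicle it was -0.02 (SE 0.12, edgeR adjusted p = 0.9999) and under corticosterone -0.07 (SE 0.12, edgeR adjusted p = 0.945). The value under corticosterone was -0.19 without the 8 libraries that stand apart (SE 0.16, edgeR adjusted p = 0.717) and 0.04 when blocked by those runs (SE 0.13, edgeR adjusted p = 0.982). Mean Ntrk2 levels were 809 ± 30.7 CPM (SD, n = 13) without and 814 ± 40.8 CPM (SD, n = 11) with training. The log2 fold change was 0.00556 (SE 0.03, edgeR adjusted p = 0.999), with an interval from -3.55% to 4.49%. Under vehicle the log2 fold change of Ntrk2 was -0.00817 (SE 0.04, edgeR adjusted p = 0.9999) and under corticosterone 0.02 (SE 0.04, edgeR adjusted p = 0.955). Over all genes 0% were called by edgeR for training averaged over treatment, with 485 genes below 0.05 before adjustment, and neither DESeq2 nor limma-voom called any (0).

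**Figure D4:**
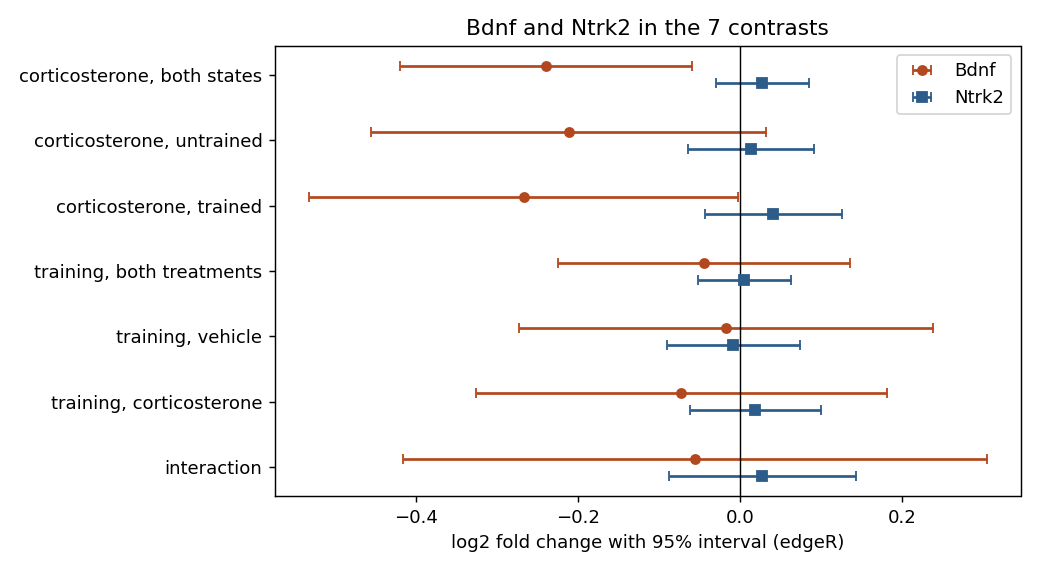
Log2 fold changes (x axis) with 95% intervals from edgeR for Bdnf (circles) and Ntrk2 (squares) in the 7 contrasts (y axis). For Bdnf the intervals for corticosterone averaged over training (-0.42 to -0.06) and in trained rats (-0.53 to -0.00192) lie below 0, though neither passed after adjustment over all genes, and the other intervals of both genes cross 0.

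By mean level the groups ranked untrained vehicle (32.99), trained vehicle (32.6), untrained corticosterone (28.5) and trained corticosterone (27.1 CPM) for Bdnf. Every step in this order was smaller than the SD of both neighbours. For Ntrk2 the order was trained corticosterone (824), untrained corticosterone (813), untrained vehicle (805) and trained vehicle (801 CPM), and the same held. The SD describes single libraries and not the uncertainty of a mean, so these orders are a description and not a test.

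The number of Ntrk2 counts per Bdnf count sets receptor against ligand within a library and needs no scaling between libraries. The ratio was 25.2 ± 5.21 in untrained vehicle (SD, n = 7), 29.4 ± 5.37 in untrained corticosterone (SD, n = 6), 24.996 ± 3.65 in trained vehicle (SD, n = 5) and 30.6 ± 2.91 in trained corticosterone libraries (SD, n = 6). It exceeded the vehicle median in 11 of 12 corticosterone libraries, with overlap in both training states. On the log2 scale the ratio was 0.26 higher with corticosterone over all libraries, or 1.20-fold (p = 0.0109 by a two-sided permutation test, 0.0328 when adjusted for the 6 contrasts). Most of this lay in Bdnf, whose log2 fold change was -0.24 against 0.03 for Ntrk2. The ratio is therefore not a result apart from that of Bdnf. For Bdnf alone the edgeR unadjusted p was 0.0114, and 0.328 when adjusted over 14838 genes rather than 6 contrasts. The ratio was 0.30 higher in trained rats (exact two-sided permutation test, p = 0.00866, adjusted p = 0.0328) and 0.23 higher in untrained rats (exact two-sided permutation test, p = 0.164, adjusted p = 0.328). Without the 8 libraries that stand apart the untrained difference was 0.0240 (exact two-sided permutation test, p = 0.952, adjusted p = 0.952). Only 6 vehicle and 3 corticosterone libraries remained there. The latter include sample 14, which had the lowest ratio of the corticosterone libraries, at 21.2. For training the differences were 0.06 averaged over treatment (permutation test, p = 0.576), 0.00130 under vehicle and 0.07 under corticosterone (exact permutation tests, p = 0.995 and 0.582), the last being 0.240 without the 8 libraries (exact permutation test, p = 0.3, adjusted p = 0.6).

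**Figure D5:**
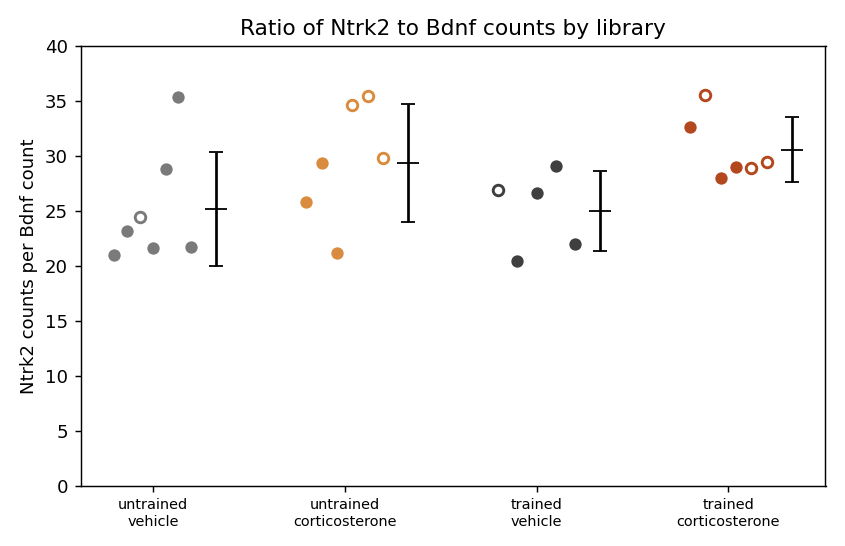
Ntrk2 counts per Bdnf count (y axis, from 0) for each library in the 4 groups, with the mean and SD of each group as a black bar and open points for the 8 libraries that stand apart on the first principal component. The ratio averages 25.2 and 24.996 in the vehicle groups and 29.4 and 30.6 in the corticosterone groups, and the groups overlap.

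Without the 8 libraries that stand apart, the difference over all libraries was 0.16 (permutation test, p = 0.237, adjusted p = 0.6). In trained rats it was 0.295, against 0.298 with them, so its size hardly moved. There 3 corticosterone and 4 vehicle libraries remained, which give 35 splits and a smallest p of 0.0286 before adjustment. By itself, a permutation p of that size would not pass 0.05 after adjustment over the 6 contrasts. The observed p was 0.2 (exact permutation test, adjusted p = 0.6), above that smallest value. The call was thus not kept, and its loss cannot be told apart from the smaller number of libraries. Both calls were lost in 16 of the 24 fits that left out 1 library, with permutation p adjusted over 6 contrasts from 0.0503 to 0.114. These libraries were untrained vehicle 2, 7, 22 and 41, untrained corticosterone 19 and 29, trained vehicle 5, 10, 20 and 35, and all 6 trained corticosterone libraries. For 6 of these 16, which are untrained, the trained libraries and their unadjusted p were unchanged, and the trained call was lost through the adjustment over the 6 contrasts alone. The unadjusted permutation p for all libraries stayed between 0.00179 and 0.0208 in these fits.

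No relation between the levels of Bdnf and Ntrk2 was detected across libraries. After group means were subtracted, Pearson's r of log2 CPM was 0.0620 (permutation p = 0.773) and Spearman's rho 0.0878 (permutation p = 0.682) over 24 libraries, and r was -0.00608 without the 2 libraries farthest from the Bdnf median. This was 1 of 5 relations computed. For Ntrk2, r with the sample number was -0.47 (permutation p = 0.0204, adjusted p = 0.102) and with total counts -0.35 (permutation p = 0.0941, adjusted p = 0.235). For Bdnf, r with the sample number was -0.29 (permutation p = 0.168, adjusted p = 0.28) and with total counts 0.06 (permutation p = 0.791, adjusted p = 0.791). None of the 5 passed after adjustment.

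The genes whose pattern over the 24 libraries was most like that of each member were found by Pearson's r of log2 CPM with group means subtracted, over 14837 other genes. For Bdnf the highest r was 0.82 (ENSRNOG00000005387, mean 69.9 CPM) and the lowest -0.83 (ENSRNOG00000047386, mean 203 CPM). For Ntrk2 the highest r was 0.79 (ENSRNOG00000008100, mean 22.4 CPM) and the lowest -0.77 (ENSRNOG00000017977, mean 99.3 CPM). These are extremes among many genes measured in the same libraries and are given as a description. Of these 4 genes, ENSRNOG00000008100 differed with corticosterone averaged over training (log2 fold change -0.21, edgeR adjusted p = 0.0202). The r between Bdnf and Ntrk2 themselves was higher than that of 58.2% of genes with Bdnf.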

How the data were processed

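RNA was extracted from dissected, frozen hippocampus, enriched for messenger RNA and made into stranded paired-end libraries for a DNBseq instrument, per the labels' protocols. The authors deposited raw counts per Ensembl gene. Reads were aligned or counted with tools that include STAR 2.7.0b and HTSeq 0.6.1, on build rn6, per the submitters' processing notes. Which gene annotation and strand mode HTSeq ran with is not given in the sources used here, and reads of RNAs that overlap Ntrk2 or Bdnf may be counted with them. Rows that name no gene (39.0% of reads on average) were left out.

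Groups were read from the sample titles. Sample 41 is untrained vehicle by its title and was kept so, although its column sits with those of trained vehicle rats. Genes were filtered with filterByExpr, scaled by TMM and tested with edgeR 4.0.16 (quasi-likelihood) in R 4.3.3, with 4 group means in 1 model and Benjamini-Hochberg adjustment over 14838 genes in each contrast. Calls needed an adjusted p under 0.05. SE is the log2 fold change over the root of its F statistic, and intervals are at 95%. CPM for correlations and components were log2-transformed with a prior count of 2, and ratios used a pseudocount of 0.5. Permutation tests were exact, or used 100000 resamples where both groups had at least 10 libraries. The alternatives were DESeq2 1.42.0, limma 3.58.1, other scalings, no filter, fewer libraries, 2 covariates and a block, of which the sample number and the block of runs of 5 sample numbers were chosen after seeing the data. The fit was tested on simulated data. Genes were named by a rule: Bdnf and Ntrk2, and the single highest and lowest correlated gene for each, by identifier, since 0 identifiers matched the reference table. The fixed lists of pathway and cell type marker symbols could for that reason not be used. The members and lists were chosen with earlier results of these data known.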

Additional observations from a re-analysis of the deposited data

Results flagged for a closer look

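Among 6 trained corticosterone libraries, sample 8 was far below the others for Bdnf, at 22.7 CPM against 27.2 to 28.7 CPM in the other 5. In the same group sample 3 was far above the others for Ntrk2, at 925 CPM against 791 to 831 CPM. The distance to the next library made up 0.755 and 0.701 of the span of the group, in this order, which is more than Dixon's test allows at the 95% level for 6 values. Of 12 group and measure combinations examined, these 2 passed, and chance alone flags about 1 in 20. Without sample 8 the log2 fold change of Bdnf for corticosterone in trained rats was -0.22 (edgeR adjusted p = 0.773), and without sample 3 that of Ntrk2 was 0.00580 (edgeR adjusted p = 0.993).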

How the results depend on the processing

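No setting made Bdnf or Ntrk2 pass after adjustment in any contrast, with edgeR, DESeq2 or limma-voom. For Bdnf and corticosterone averaged over training, the log2 fold change lay between -0.29 and -0.13 over 9 settings, and for Ntrk2 between 0.02 and 0.05. The libraries that stand apart changed most. Without them the ratio of Ntrk2 to Bdnf no longer passed for corticosterone over all libraries (0.157) or in trained rats (0.295, nearly the full value, with few libraries left). The ratio difference was 0.0240 in untrained rats. The training difference under vehicle turned sign for Bdnf (0.00299) and for the ratio (-0.0311), and so did the correlation of the 2 genes (-0.120). That correlation was also negative without subtracting group means (-0.0618). The causes were not tested. DESeq2 called 87 genes for corticosterone in untrained and 60 in trained rats, against 53 and 24 with edgeR. Leaving out each library in turn gave these ranges on the log2 scale. For Ntrk2 they were 0.00992 to 0.0365 for corticosterone averaged over training, -0.00433 to 0.0315 for corticosterone in untrained rats, -0.0123 to 0.0125 for training averaged over treatment, -0.0164 to 0.0333 for training under corticosterone and -0.00825 to 0.0449 for the interaction. For Bdnf they were -0.0988 to 0.0431 for training under vehicle, -0.140 to 0.00689 for training under corticosterone and -0.124 to 0.0252 for the interaction. For the ratio they were 0.236 to 0.308 for corticosterone over all libraries, 0.228 to 0.357 in trained rats, -0.0569 to 0.0868 for training under vehicle and -0.0156 to 0.133 under corticosterone. The correlation ranged from -0.0764 to 0.226. No paired analysis was possible because no sample number is shared between groups and the labels do not say that neighbouring numbers mark a litter, batch or day. As an alternative chosen after the values were seen, runs of 5 consecutive sample numbers (8 runs) were taken as a block. The log2 fold change of Bdnf for corticosterone was then -0.29 averaged over training (SE 0.09, edgeR adjusted p = 0.326), -0.32 in untrained and -0.26 in trained rats, and that of Ntrk2 averaged over training 0.03, with no call changed. Untrained corticosterone sample 14 was the only library of its run, so the block took it out of the contrasts. Leaving out sample 14 with no block gave Bdnf values of -0.279 averaged over training and -0.291 in untrained rats. Under this block signs turned for training averaged over treatment (Bdnf 0.00992, Ntrk2 -0.00610), and for Bdnf for training under corticosterone (0.0396) and the interaction (0.0594). In 9 of 9 pairs of a vehicle and a corticosterone library with the same run and training state, Bdnf CPM was lower with corticosterone, and Ntrk2 in 2 of 9, given as a description. These pairs hold only 18 of the 24 libraries. Outside them, Bdnf was at 36.4, 26.8 and 23.2 CPM in vehicle samples 22, 25 and 32. It was at 36.1, 28.7 and 27.2 CPM in corticosterone samples 14, 28 and 40, so the pairs leave out part of the overlap. Depth limits Bdnf more than Ntrk2, at 339 to 594 counts a library.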
